A study of Rattus norvegicus with 18 samples.

Results

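Ion channels and transmitter receptors were read in RNA of the rat femur during fracture healing. A probe set, a group of short probes for one RNA, was taken as a member if its gene symbol began with Kcn, Scn, Cacn, Gabr, Gabbr, Gria, Grik, Grin, Grm, Htr, Asic or Clcn, leaving out Clcn7. This gave 141 genes, read by 225 of the 8740 probe sets that are not controls of the manufacturer, out of 4736 genes with 1 symbol. Of the members, 59 had more than 1 probe set, and the one with the highest mean signal stands for the gene. The prefix Grin also takes in Grina, a protein associated with glutamate receptors that is not a receptor subunit, and the prefix Scn takes in 3 subunits of the epithelial sodium channel.

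The animals were intact female Sprague-Dawley rats of 3 ages, young (6 weeks at fracture), adult (26 weeks) and older (52 weeks). Rats of the 0 time group had no fracture (sham controls), and the others were taken 0.4 (3 days in the labels), 1, 2, 4 or 6 weeks after a closed femoral fracture held by an intramedullary rod. There was 1 array for each age and time point, 18 in all, and each held pooled RNA of 2 rats. The 3 ages therefore stood as replicates of each time point, and an age had a single 0 time array. The tissue was the diaphyseal femur around the fracture. Summed signals of chondrocyte markers went from 263 to 2650.4 at 0 time to between 23888 and 27618 at 2 weeks, and those of osteoblast and bone matrix markers were between 30346 and 158455. Markers of skeletal muscle were also present on all arrays.

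Voltage-gated channels open with a change in membrane potential and carry sodium, potassium or calcium, and inward rectifiers set the resting potential. GABA-A, NMDA, AMPA and kainate receptors are channels opened by a transmitter, whereas GABA-B, metabotropic glutamate and most serotonin receptors act through G proteins. They are best known from nerve and muscle, and bone, cartilage, blood and smooth muscle cells also hold some of them. In skeletal muscle, Cacna1s and Cacng1 are subunits of the voltage sensor of excitation-contraction coupling, Scn4a carries the sodium current of the action potential, Clcn1 the resting chloride current, and Kcnj11 is the pore of the ATP-sensitive potassium channel.

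Cacna1s, Scn4a and Clcn1 moved together after fracture (values follow), and their promoters are shown for that reason. Each runs 5′ to 3′ on the strand of the gene, from 250 bases before to 50 bases after a transcript start in the RefSeq table of build GRCr8. Capitals mark E-boxes, the motif CANNTG that myogenic factors bind, which reads the same on both strands. Cacna1s lies at chr13:50045418-50045717 on the plus strand, Scn4a at chr10:91796275-91796574 on the minus strand and Clcn1 at chr4:72138928-72139227 on the plus strand.
Cacna1s: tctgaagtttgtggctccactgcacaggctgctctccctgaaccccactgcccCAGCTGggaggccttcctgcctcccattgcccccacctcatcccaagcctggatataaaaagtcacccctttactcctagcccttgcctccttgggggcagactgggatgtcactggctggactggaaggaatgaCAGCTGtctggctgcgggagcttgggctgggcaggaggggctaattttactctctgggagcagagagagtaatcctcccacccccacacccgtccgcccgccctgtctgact
Scn4a: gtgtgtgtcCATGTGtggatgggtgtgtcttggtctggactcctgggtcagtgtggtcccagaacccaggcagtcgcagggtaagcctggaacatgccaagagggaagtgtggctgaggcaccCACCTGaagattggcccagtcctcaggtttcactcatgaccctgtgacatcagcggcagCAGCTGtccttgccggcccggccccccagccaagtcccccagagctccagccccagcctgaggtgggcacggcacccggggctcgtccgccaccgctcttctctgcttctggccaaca
Clcn1: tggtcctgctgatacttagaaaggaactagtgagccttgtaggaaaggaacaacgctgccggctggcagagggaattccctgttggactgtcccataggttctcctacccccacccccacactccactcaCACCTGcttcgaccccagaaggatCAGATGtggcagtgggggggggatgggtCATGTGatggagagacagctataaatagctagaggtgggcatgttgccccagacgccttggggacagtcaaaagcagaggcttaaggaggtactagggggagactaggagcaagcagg
The E-box was present 2 times in the Cacna1s promoter, 3 times in that of Scn4a and 3 times in that of Clcn1. It was found in 71.6% of the 27457 promoters of the table and in 67.6% of the 105 members with an entry. The MEF2 motif, searched on both strands, was present in the Clcn1 promoter and in 3.37% of all promoters, and was in neither of the others.

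Most members gave low signals. The signal is a linear fluorescence value, scaled by the authors to an average of 500 on each array, and values below 20 were treated as 20. Of 2538 member values, 498 (19.62%) were below 20, against 15.44% of the values of all probe sets. The share was 29.26% over all 225 probe sets of the members. Only 3 members were below 20 on all 18 arrays, 58 on at least 1 array and 83 on none. By array, the share of members below 20 was lowest in the adult (9.93%) and older (10.64%) 0 time arrays and highest, at 26.24%, in the young 0.4- and 1-week arrays and the older 2-week array. All probe sets together went the same way, with 10.49% in the adult 0 time array and 12.36% in the older one, against 17.24% in the young 0 time array.

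A mean signal of 100 or more over the 18 arrays was found for 65 members (46.1%), against 61.95% of all probe sets. These 65 were followed further. Nearest to the limit were Gabre (104.5) and Gabra6 (107.8) inside it and Asic3 (99.3) and Gria1 (92.8) outside it. Signals of different probe sets depend on their probes, so their order is not an order of RNA amounts.

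Families differed in how many members were above that limit. All 6 measured NMDA receptor subunits were above it, none of their values was below 20, and their mean signals were from 187 (Grin3a) to 401 (Grin2b). Both GABA-B receptor subunits were also above it. None of the 4 AMPA receptor subunits reached it, and 41.67% of their values were below 20. Of the kainate receptor subunits 1 of 5 did, namely Grik5 with 177. Of the voltage-gated calcium channel subunits 10 of 14 passed the limit, of the voltage-gated sodium channels 3 of 10, and of the GABA-A receptor subunits 7 of 15. The highest mean signals were those of Grina (2561), the calcium channel subunit Cacna2d1 (1085), the potassium channel Kcnh3 (1013), Kcnj11 (909), Cacng1 (796), Cacna1s (729), the cardiac potassium channel Kcnh2 (691), the GABA-A receptor delta subunit Gabrd (586), the P/Q-type calcium channel Cacna1a (584) and Kcnmb1 (510), a potassium channel subunit of smooth muscle.

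**Figure D1:**
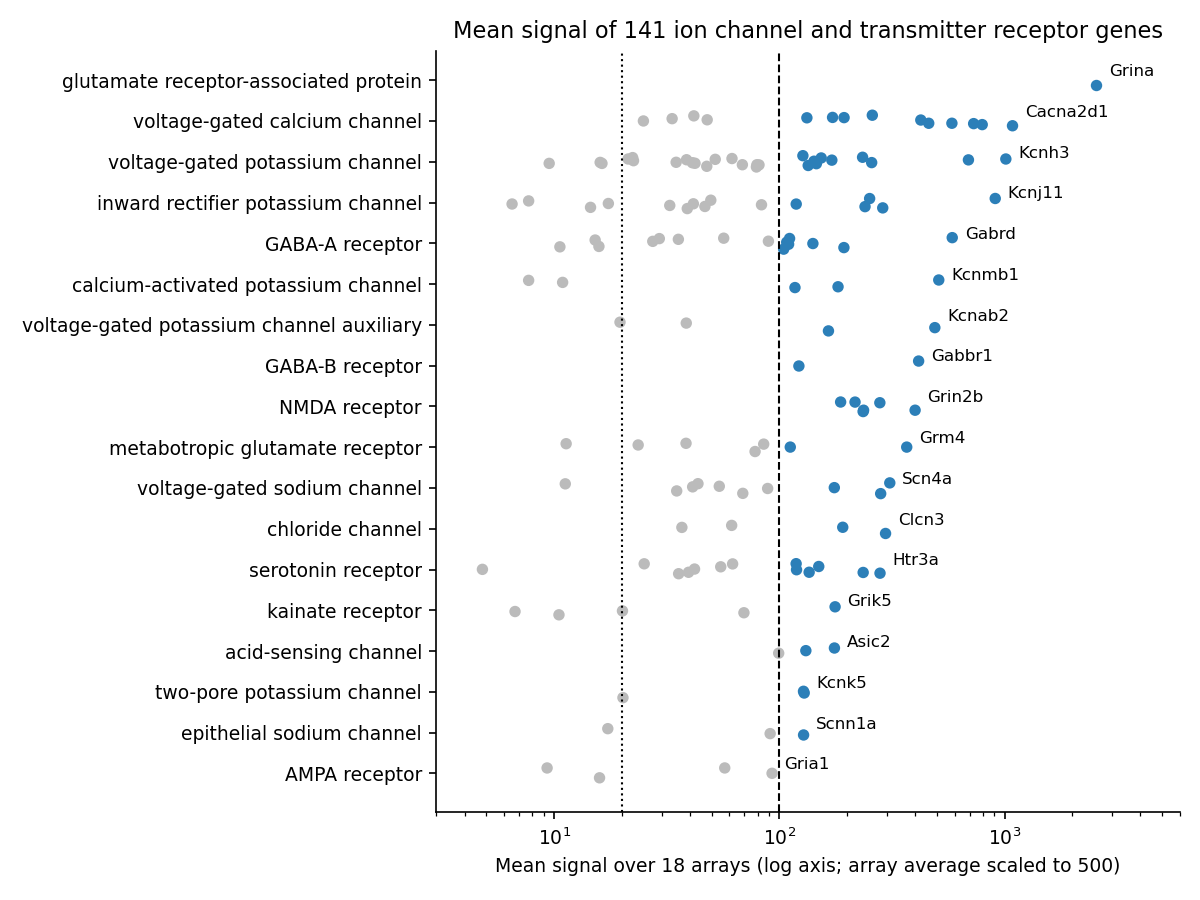
Mean signal over 18 arrays (log axis) of the 141 members, 1 point a gene, by family. Blue points have a mean of 100 or more (dashed line), grey points do not, the dotted line is at 20, and the gene named is the one with the highest mean signal of its family. All 6 measured NMDA receptor subunits and no AMPA receptor subunit lie to the right of the dashed line.

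After fracture the members that changed were mostly lower than at 0 time. Limma's moderated F test over the 5 later time points was passed by 24 of 141 members (17.0%), against 26.4% of all probe sets. Among all probe sets 13.4% were called higher and 13.1% lower, whereas 2 members were higher (1.42%) and 22 lower (15.6%). Among the 65 followed members, 15 were lower and 1, the calcium channel subunit Cacnb3, was higher. The share of members called was below that of all probe sets, and nearly all called members were lower. At an unadjusted p of 0.05, 53 members passed, 4 higher (2.84%) and 49 lower (34.8%), against 19.9% and 21.9% of all probe sets, 41.8% in all.

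The decline was seen in the first weeks. At 0.4 weeks 38 members were lower (27.0%) and 2 were higher, against 17.1% and 14.1% of all probe sets. At 1 week 45 members were lower (31.9%) and 2 higher, against 20.4% and 14.6%. At 2 weeks 24 were lower (17.0%) and 2 higher, against 10.3% and 9.49%. At 4 weeks 2 members, Scn4a and Clcn3, were lower and none was higher, against 1.77% and 3.31%. At an unadjusted p of 0.05, 26 were lower then (18.4%) and 2 higher (1.42%), against 12% and 13.3% of all probe sets. At 6 weeks 1 member, Clcn3, was lower and none was higher, against 0.32% and 0.561%. At an unadjusted p of 0.05, 24 were lower then (17.0%) and 1 higher (0.709%), against 10.3% and 10.2%. The median log2 change of the members was -0.48, -0.44, -0.47, -0.31 and -0.28 at these times, and that of all probe sets was -0.13, -0.13, -0.13, -0.04 and -0.06. In a tissue of many cell types, fewer cells of a type and less RNA per cell cannot be told apart.

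These counts, like those of all probe sets, rested on the adult and older 0 time arrays. Without the older rats, or without the adult rats, 0 members passed the F test, against 2.0% and 0.297% of all probe sets. At an unadjusted p of 0.05, 19 and 18 members passed it, against 23.5% and 19.1% of all probe sets. Without the young rats 31 members did (22.0%), against 23.3%. With the other arrays of that age kept, 9 members (6.38%) passed without the older 0 time array, 12 (8.51%) without the adult one and 44 (31.2%) without the young one, against 17.0%, 18.5% and 36.8% of all probe sets. Those passing in each of these 3 fits and with all arrays were 7: Cacna1s, Clcn1, Kcnab2, Kcnj10, Kcnj5, Scn4a and Scn7a. The share of all probe sets that passed in each of these fits was not counted. The 7 are therefore not a result about the members as a group. The members lower at 1 week were 17 without the older 0 time array, 25 without the adult and 61 without the young one, against 9.08%, 13.2% and 26.1% of all probe sets. At 2 weeks 0 members were lower without the older 0 time array (27 at an unadjusted p of 0.05, where 14.7% of all probe sets were), 5 without the adult and 43 without the young one, against 1.45%, 3.88% and 19.5%. The older 0 time array was the highest of the 18 for 37 of the 65 followed members (56.9%), against 20.4% of all probe sets whose mean signal was 100 or more. The adult 0 time array was the highest for 10 of them (15.4%), against 15.1%.

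Arrays of single ages were then set against their own 0 time array, a description with no replicates. At 1 week 59 of 141 members (41.8%) were at least 2-fold lower in the older rats, 40 (28.4%) in the adult rats and 19 (13.5%) in the young rats. The shares of all probe sets were 25.7%, 19.6% and 10.5%. At 6 weeks 46 members (32.6%) were at least 2-fold lower in the older rats, 22 (15.6%) in the adult and 8 (5.67%) in the young, and the shares of all probe sets were 16.6%, 13.2% and 6.88%. At 6 weeks the median change of the followed members was -0.88 on the log2 scale in older, -0.41 in adult and 0.24 in young rats. That of all probe sets was -0.11, -0.04 and 0.01. The young 6-week array had the highest ratio of the 3′ to the 5′ probe set of Gapdh (6.57), a measure of RNA quality. Its part in these values was not tested.

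**Figure D2:**
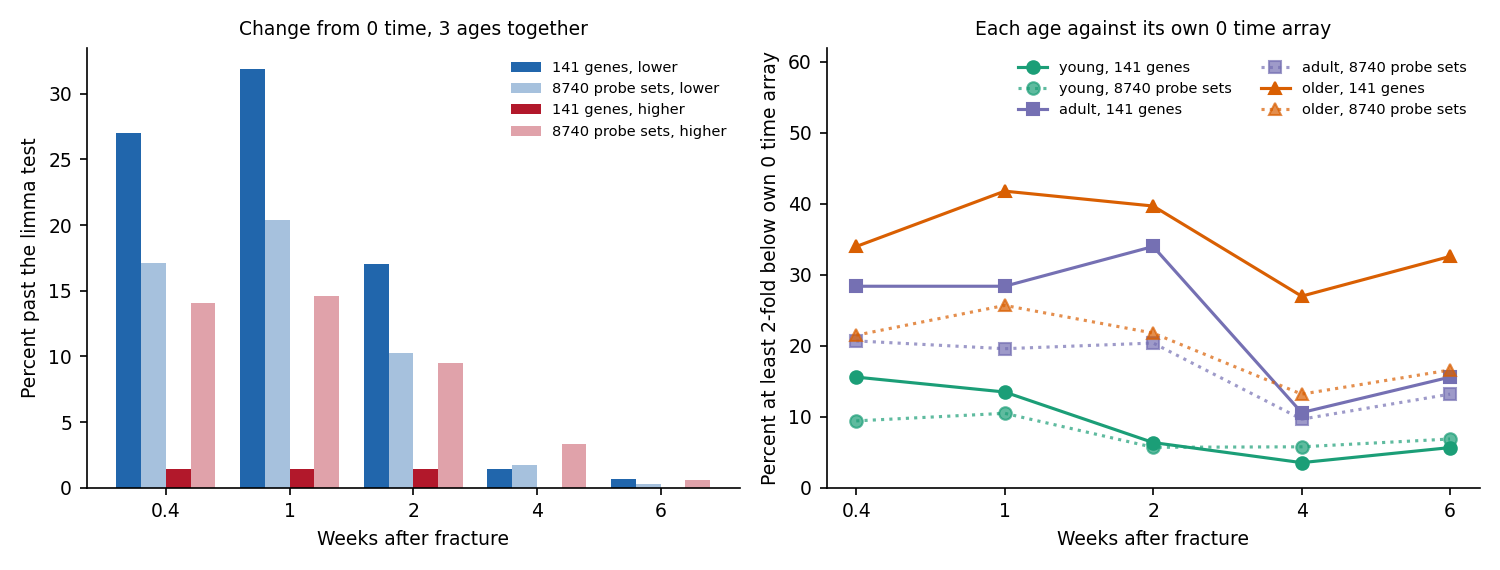
Left, the percent of the 141 members and of 8740 probe sets that were lower (blue) or higher (red) than 0 time by limma at each time after fracture, with the 3 ages together; right, the percent at least 2-fold below the 0 time array of the same age, 1 array per age and time. At 1 week the lower members were 31.9% against 20.4% of all probe sets, and in the older rats 41.8% of members were at least 2-fold lower.

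The channel subunits of skeletal muscle fell at 0.4 weeks and were nearer their 0 time level at 6 weeks. Cacna1s (GRCr8 chr13:50045668-50115903) had signals of 634, 2660.4 and 1881 at 0 time in young, adult and older rats, and of 172, 199.6 and 223 at 0.4 weeks. The 3 arrays at 0.4 weeks were all below the lowest 0 time array. The log2 change was -2.90 ± 0.35 (SE; adjusted p = 3.3e-04), a 7.46-fold decline, and at 6 weeks, with signals of 672, 793 and 949, it was -0.88 (adjusted p = 0.18). Cacng1 had signals of 605, 1792 and 1481 at 0 time and of 358, 472 and 544 at 0.4 weeks (log2 change -1.38 ± 0.26, adjusted p = 0.0031). Scn4a had 296, 924 and 623 at 0 time and 131, 187 and 195 at 0.4 weeks (-1.72 ± 0.28, adjusted p = 0.0015). It was still lower at 4 weeks (-1.29 ± 0.28, adjusted p = 0.032). All 3 arrays at 0.4 weeks were below all 0 time arrays for both genes. Such a separation at 0.4 weeks was found for 24.7% of all probe sets.

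Kcnj11 (GRCr8 chr1:105727473-105731167) fell from 740.4, 1837 and 2481 at 0 time to 477, 484 and 657 at 0.4 weeks (-1.49 ± 0.31, adjusted p = 0.0049). The young 0 time array was the lowest of these 3, and at 6 weeks the signals were 788, 1119 and 1171. Clcn1, with a mean signal of 36.9, fell from 43.9, 74.9 and 63.2 to 21.6, 27.3 and 19.7 (-1.38 ± 0.22, adjusted p = 0.0013), the last of these below the floor. The beta subunit of muscle calcium channels, Cacnb1, was lower at 0.4 weeks (-0.77 ± 0.25, adjusted p = 0.035) and did not pass the F test (adjusted p = 0.17).

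Markers of muscle fibres moved with these channels. Of 25 measured skeletal muscle markers, each with a mean signal of 100 or more, 22 were lower and 1, the muscle regulator Myog, was higher by the F test. Among all probe sets 13.1% were lower and 13.4% higher. The summed signal of the muscle markers was between 221678 and 458062 at 0 time, between 54745 and 64053 at 0.4 weeks and between 192487 and 233204 at 6 weeks. At 0 time the young array had the lowest value of the 3 ages for this sum, as for Cacna1s, Cacng1, Scn4a and Kcnj11. The part of muscle content in the channel signals was not tested.

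**Figure D3:**
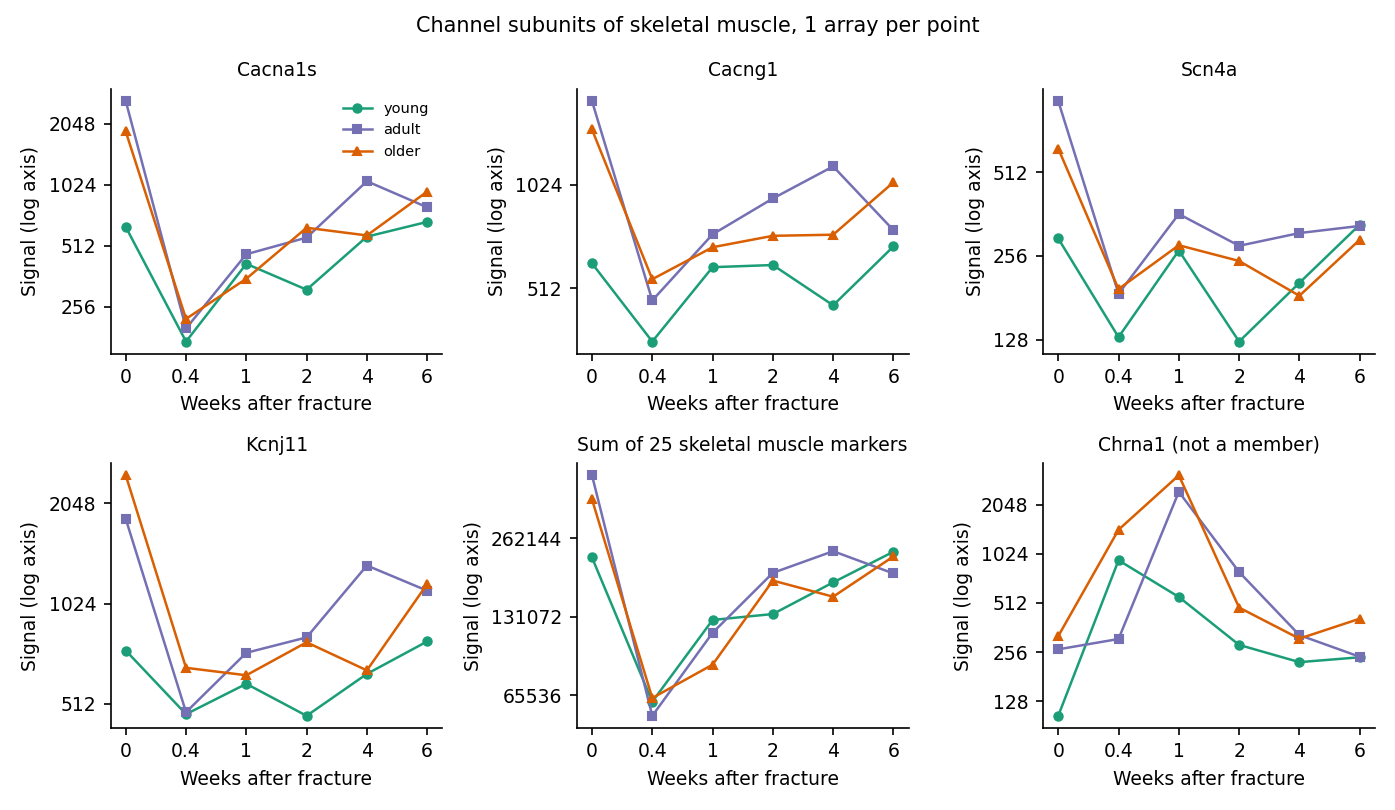
Signal (log axis) of Cacna1s, Cacng1, Scn4a, Kcnj11, the summed signal of 25 skeletal muscle markers and the signal of Chrna1, a gene outside the members, against weeks after fracture, 1 line an age and 1 array a point. The channels and the markers were lowest or near their lowest at 0.4 weeks, where Cacna1s was at 172 to 223, and Chrna1 was higher at 1 week, at 557 to 3091.

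Gabrd, Grin2b and Grm7, known mainly from nerve, were lower as well, whereas Grin1, Gabbr1 and Cacna1a, known from there too, did not pass the F test (values follow). Gabrd (GRCr8 chr5:171240813-171252709), a GABA-A subunit of extrasynaptic receptors, had signals of 533, 1458 and 1343 at 0 time, of 310.2, 265 and 261 at 0.4 weeks, and of 306, 256 and 301 at 1 week. Both later times were below all 0 time arrays, as they were for 24.7% and 27.0% of all probe sets. The log2 changes of Gabrd were -1.87 ± 0.41 (adjusted p = 0.0064) and -1.82 ± 0.41 (adjusted p = 0.0072). At 2 weeks its signal was 689 in young rats and 279 and 339.5 in adult and older rats. Its other probe set, with a mean signal of 178, also passed the F test. Grin2b, a glutamate-binding NMDA receptor subunit, went from 449, 496 and 725 at 0 time to 218, 254 and 283 at 1 week (-1.12 ± 0.22, adjusted p = 0.0046). Grm7, a presynaptic glutamate receptor, went from 88.2, 224 and 305 to 39.0, 13.1 and 30.0 (-2.67 ± 0.57, adjusted p = 0.0062), with 1 of these arrays below the floor.

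The NMDA receptor subunits did not all go alike. At 0.4 weeks Grin2a (-0.95 ± 0.23, adjusted p = 0.011), Grin2b (-0.64 ± 0.22, adjusted p = 0.048) and Grin3a (-1.20 ± 0.41, adjusted p = 0.048) were lower. Grin2c was lower at 1 week (-0.84 ± 0.24, adjusted p = 0.021). Grin2d had its largest difference at 6 weeks (-0.70 ± 0.23, adjusted p = 0.12). The obligatory subunit Grin1 had log2 differences from -0.22 to 0.38 and an F test p of 0.53 after adjustment, and its lowest array was older 0 time (102).

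Of the voltage-gated potassium channels 2 of 27 passed the F test, of their auxiliary subunits 2 of 4 and of the voltage-gated sodium channels 4 of 10, all of them lower. Among all probe sets 26.4% passed it, 13.1% in the lower direction. Kcnab2, a cytoplasmic beta subunit, went from 807, 574 and 768 at 0 time to 342, 305 and 191 at 1 week (-1.39 ± 0.24, adjusted p = 0.0025). Kcnq3, a subunit of the M-current channel, went from 236, 476 and 411 to 155.5, 169 and 177 at 0.4 weeks (-1.10 ± 0.21, adjusted p = 0.0032). Scn7a, the sodium-sensing channel of glia and other cells, went from 373, 360.4 and 595 to 161, 161 and 195 at 0.4 weeks (-1.33 ± 0.28, adjusted p = 0.0053). For each of these, every array at the time given was below every 0 time array. That held for 24.7% of all probe sets at 0.4 weeks and for 27.0% at 1 week.

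Of the 15 inward rectifiers 4 passed the F test, all lower, and 3 of them had their largest change at 1 or 2 weeks. The shares of all probe sets were 26.4% past this test and 13.1% lower. Kcnj10, a potassium channel of glia, had signals of 181, 186 and 263 at 0 time and of 7.4, 79.1 and 35.0 at 1 week (-2.44 ± 0.42, adjusted p = 0.0025), the young array being below the floor. Kcnj5, a channel opened by G proteins, with a mean signal of 83.3, went from 166, 145 and 122 to 28.4, 17.4 and 31.7 at 1 week (-2.45 ± 0.28, adjusted p = 5.3e-04), the adult array being below the floor. Kcnj1, the potassium channel of the kidney tubule, went from 329, 365 and 530.4 to 115, 149 and 264 at 2 weeks (-1.28 ± 0.25, adjusted p = 0.011). Kcne1, which slows the cardiac channel Kcnq1, was lower at 0.4 weeks (-1.15 ± 0.28, adjusted p = 0.011) and 2 weeks (-1.17 ± 0.28, adjusted p = 0.019), and not by the test at 1 week (-0.47 ± 0.28, adjusted p = 0.21). Cacna1g, a T-type calcium channel, was lower at 1 week (-0.64 ± 0.14, adjusted p = 0.0074), with 340.1, 361 and 315 against 632, 519 and 445 at 0 time.

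The remaining called members had mean signals under 100. Htr1a, a serotonin receptor, was lower at 0.4 and 1 week, and Scn10a, a sodium channel of sensory neurons, at 0.4, 1 and 2 weeks. Scn11a, a related sodium channel, Kcnc1, a fast potassium channel, and Grm8, a presynaptic glutamate receptor, had their largest changes at 1 week, from -0.999 to -1.74 on the log2 scale. Gabrp, a GABA-A receptor subunit of epithelia, was higher at 0.4 weeks (0.74 ± 0.23, adjusted p = 0.029) and at 2 weeks, at signals between 33.2 and 54.6 there.

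Clcn3 was lower at every time, and Cacnb3 was the followed member that was higher. Clcn3 (GRCr8 chr16:34138004-34210984), a chloride/proton exchanger of endosomes, had signals of 459, 548 and 513 at 0 time and of 154 to 344 on the 15 arrays after fracture, which did not overlap. Its log2 change went from -0.89 ± 0.19 at 2 weeks (adjusted p = 0.014) to -1.08 ± 0.19 at 0.4 weeks (adjusted p = 0.0023), with -0.97 ± 0.19 at 6 weeks (adjusted p = 0.045), and it did not pass the F test without the older 0 time array. At 6 weeks alone, 7.79% of all probe sets had every array below their 0 time arrays. Cacnb3 (GRCr8 chr7:131663810-131676085), a beta subunit that brings calcium channels to the membrane, had signals of 114, 98.9 and 77.7 at 0 time and of 213, 232 and 248 at 2 weeks (1.27 ± 0.26, adjusted p = 0.011). It was also higher at 0.4 weeks (1.00) and 1 week (1.01), and at 6 weeks its young array was back at 78.8, with 198.7 in adult and 142 in older rats. Cacnb3 did not pass the F test without the adult 0 time array, nor without the older one.

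**Figure D4:**
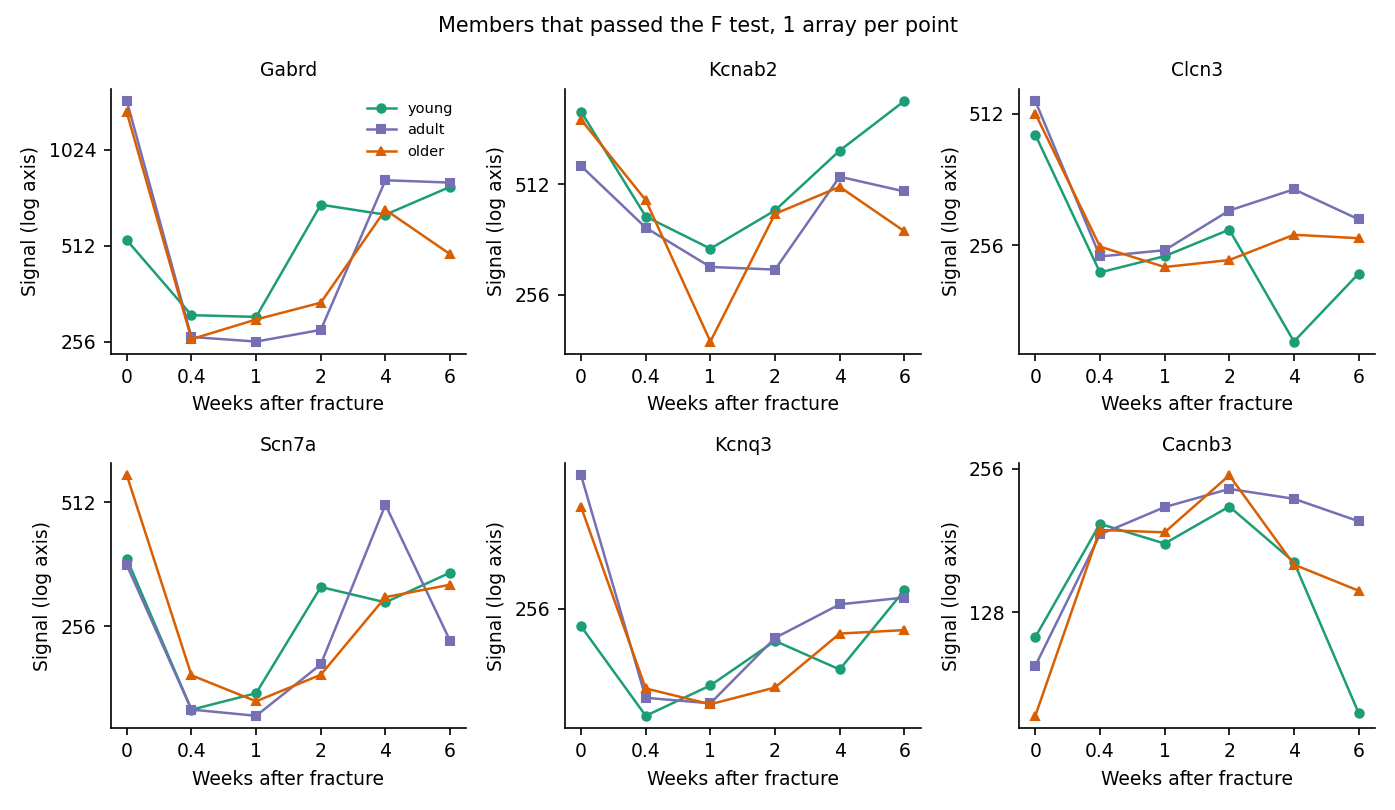
Signal (log axis) of Gabrd, Kcnab2, Clcn3, Scn7a, Kcnq3 and Cacnb3 against weeks after fracture, 1 line an age and 1 array a point. Clcn3 was below its 3 values at 0 time (459 to 548) on all 15 later arrays, and Cacnb3 rose to between 213 and 248 at 2 weeks.

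Several of the brightest members did not pass the F test. Kcnh3 had signals between 677 and 1328 on all 18 arrays and an adjusted p of 0.48. Its other probe set, with a mean signal of 107, passed the F test (adjusted p = 0.0075) and was higher at 0.4 weeks (1.46, adjusted p = 0.0048) and at 1 week (1.60, adjusted p = 0.0034). The adjusted p of the F test was 0.50 for Cacna1a, for Kcnmb1 0.30, for Gabbr1, a GABA-B receptor subunit, 0.52, and for Cacna2d1, which had its highest array at adult 0 time (2503) and its lowest at adult 6 weeks (279), 0.20. Kcnh2 was lower at 1 week (-0.995 ± 0.24, adjusted p = 0.011), with 476, 441 and 421, and the F test gave an adjusted p of 0.073. Its other probe set, with a mean signal of 81.8, was lower at 1 week too (-0.99, adjusted p = 0.0086) and passed the F test (adjusted p = 0.030). Htr3a, the serotonin-gated channel, had a log2 difference of -1.26 ± 0.47 at 0.4 weeks (adjusted p = 0.063). Among the highest members of other families, Asic2 (0.062), Grik5 (0.42), Kcnk5 (0.094), Scnn1a (0.065), Grm4 (0.14) and Gria1 (0.060) did not pass the F test at these adjusted p-values.

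The members lower at 1 week were spread over most families, and 20.4% of all probe sets were lower then. Of the chloride channels 3 of 4 were, of the voltage-gated sodium channels 5 of 10, of the calcium channels 7 of 14, of the inward rectifiers 5 of 15, of the GABA-A receptor subunits 4 of 15, of the voltage-gated potassium channels 7 of 27 and of the serotonin receptors 2 of 13. Of the smaller families, 2 of 4 AMPA, 2 of 6 NMDA and 3 of 7 metabotropic glutamate receptor genes were lower, as were 2 of 3 two-pore potassium channels and 1 each of 3 acid-sensing channels, 3 epithelial sodium channel subunits and 4 auxiliary subunits of potassium channels. None of the 5 kainate receptor subunits, the 5 calcium-activated potassium channel subunits or the 2 GABA-B receptor subunits was.

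Clcn3, Gabrd, Gabbr2 and Asic3 are also among the genes the study listed, partly from these arrays, so their values are not independent evidence of their direction. Gabbr2, the GABA-B receptor subunit that couples to G proteins, had a highest probe set that did not pass the F test (adjusted p = 1.0), with its lowest array at young 0 time (36.6) and its highest at adult 0 time (204). Another probe set, the one with the accession listed by the study, had -1.45 at 0.4 weeks (adjusted p = 0.056), and the remaining one, with a mean signal of 32.1, was lower (-1.16, adjusted p = 0.026). Asic3, an acid-sensing channel of sensory nerve, had signals of 119, 45.4 and 70.4 at 0 time and of 176, 140.2 and 115 at 2 weeks (0.97 ± 0.40, adjusted p = 0.11). Its 2-week signal was thus highest in young rats. Its log2 change from the own 0 time array at 1 and 2 weeks was -0.09 and 0.57 in young rats. It was 1.59 and 1.63 in adult and 0.61 and 0.70 in older rats, each from single arrays.

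Other probe sets of the called genes did not always follow. Of the 24 called members 11 had 14 further probe sets, of which 3 passed the F test (Cacna1s, Gabrd and Kcnj11) and 9 had the same sign of largest change. For Scn4a the others had 0.69 at 4 weeks and -1.34 at 6 weeks as their largest differences, at adjusted p-values of 0.56 and 0.43. For Scn7a the other had 0.97 at 4 weeks (adjusted p = 0.054), and for Kcnab2 the other had -0.48 at 1 week (adjusted p = 0.53). The members that did not pass had 70 further probe sets, of which 6 did, namely 1 each for Htr4, Kcnc2, Kcnh2, Kcnh3, Kcnma1 and Scn9a.

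Markers of neurons and of Schwann cells were read beside these genes. Of 21 measured neuron and axon markers, 12 of them with a mean signal of 100 or more, 2 were lower (Mapt and Vamp2) and 2 higher (Uchl1 and Thy1, which other cells also hold) by the F test. The neurofilaments Nefl, Nefm and Nefh had mean signals of 72.5, 19.4 and 29.9 and did not pass it. Beside these lists, 13.1% of all probe sets were lower and 13.4% higher by that test. The summed signal of the neuron and axon list was between 6604 and 8275 at 0 time and between 10794 and 13107 at 1 week, and Thy1 alone reached 9411 there. Of 9 Schwann cell and myelin markers 3 were higher and 2, Mbp and Mag, were lower, and their summed signal went from between 2463 and 2988 at 0 time to between 3862 and 4262 at 1 week. Erythroid (6 of 6) and granulocyte (5 of 5) markers were lower by the F test, and their part in the members' signals was not tested.

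Genes of the same pathways outside the members were read from gene lists. Of 25 nicotinic, purine and other ligand-gated channels 4 were higher and 6 lower by the F test. Among all probe sets 13.4% were higher and 13.1% lower. The muscle nicotinic receptor subunit Chrna1, also listed by the study, had signals of 104, 266 and 321 at 0 time and of 557, 2449 and 3091 at 1 week (log2 change 2.96 ± 0.58, adjusted p = 0.0043). Chrnd (1.31 ± 0.32 at 1 week), Chrne (1.34 ± 0.26 at 1 week) and the ATP-gated channel P2rx4 (1.30 at 1 week) were also higher, and P2rx2 was lower (-0.68 at 2 weeks). These 3 subunits of the muscle nicotinic receptor were higher at 1 week, when Cacna1s and Scn4a were lower. Of the 25 genes of this list, 4 were higher and 9 lower at 1 week by limma. The shares of all probe sets then were 14.6% and 20.4%.

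Of 24 ion pumps and exchangers 5 were lower, among them the muscle calcium pumps Atp2a1 and Atp2a2 (-2.32 and -2.29 at 0.4 weeks) and the pump regulator Fxyd1 (-1.82), and 1 was higher. For this list and those that follow, the F test shares of all probe sets were 13.1% lower and 13.4% higher. Of 29 genes of transmitter synthesis and uptake 6 were lower and 2 higher. Glutamine synthetase Glul fell by 1.60 at 1 week and the serotonin transporter Slc6a4 by 1.62, and monoamine oxidase Maoa rose by 0.81, all on the log2 scale. Of 20 muscarinic, adrenergic and dopamine receptors 4 were lower, with -1.34 for Drd3, -1.01 for Adrb3 and -0.74 for Adra1d at 1 week, and none was higher. Of 20 scaffolds 1 was lower (Shank2), of 3 other anion channels 1 was higher (Clns1a), and of 11 cation channels of store, sensory and nucleotide-gated families none passed.

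Older rats were set against young rats over the weeks after fracture, the question of age that the design asks. Over the 5 later weeks 0 members, and 0% of all probe sets, differed by limma after adjustment, and at an unadjusted p of 0.05 4 members were higher (2.84%) and 6 lower (4.26%) in older rats, against 5.9% and 6.72% of all probe sets. The lowest p-values among followed members were those of Kcnc4, a fast potassium channel (older minus young 0.82 ± 0.21, adjusted p = 0.20), Cacng1 (0.48 ± 0.17, adjusted p = 0.29), Grin2c (-0.45 ± 0.16, adjusted p = 0.29), Grm4 (-0.65 ± 0.25, adjusted p = 0.34) and Grina (0.65 ± 0.26, adjusted p = 0.35). These p-values do not show that the ages were alike. For Gabbr1 the difference was 0.03 ± 0.12.

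At 4 and 6 weeks 0 members differed by limma after adjustment, against 0.149% of all probe sets, and 6 were higher (4.26%) and 0 lower in older rats at an unadjusted p of 0.05, against 8.98% and 5.61%. Grina had signals of 1197 and 734 in young rats and of 2574 and 2056 in older rats (1.30 ± 0.13, adjusted p = 0.064). Kcnc4 had 132 and 182 in young and 412 and 431 in older rats (1.44 ± 0.24, adjusted p = 0.11). The adult rats had 2581 and 2024 for Grina and 319.9 and 260.5 for Kcnc4. Both genes passed with a floor of 1 or an offset of 50, or where probe sets with a mean signal under 100 were left out, and Grina passed with quantile normalization. The ratio of the 3′ to the 5′ probe set of Gapdh, a measure of RNA quality, was 3.48 and 6.57 on the young 4- and 6-week arrays and between 1.15 and 1.83 on the others, and its part in these differences was not tested.

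The change from the own 0 time array was more downward in older than in young rats for 11 members (7.80%) and more upward for none (2 at an unadjusted p of 0.05, or 1.42%, against 8.92% of all probe sets), by limma's test of the difference. For all probe sets these shares were 3.02% and 3.57%. Asic1, an acid-sensing channel of neurons, had signals of 26.2, 289 and 303 at 0 time in young, adult and older rats. After fracture it was between 87.6 and 193 in young and between 62.9 and 138 in older rats (-3.94 ± 0.85, adjusted p = 0.027). The serotonin receptor Htr1d had 65.2 in young and 243 in older rats at 0 time, and 81.6 to 204 in both afterwards (-1.90 ± 0.44, adjusted p = 0.034). The other 9 had mean signals under 100, so that 2 of the 65 followed members (3.08%) were called. Mean signals were below the floor of 20 for Gabrr2 (15.2), Gabrb1 (15.8), Kcna3 (16.3) and Kcnab3 (19.6). For Kcnb2, Kcnab3, Kcna3 and Gabrr2 the log2 change in young rats was 0.0 at every time. The comparison rests on 1 young and 1 older 0 time array, and with a floor of 1 only Asic1 and Scnn1g passed.

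**Figure D5:**
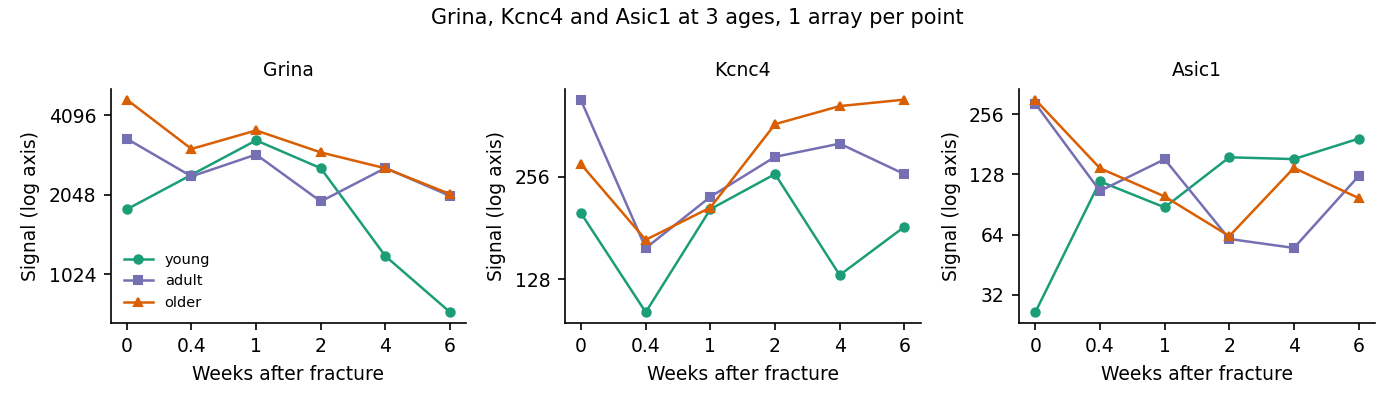
Signal (log axis) of Grina, Kcnc4 and Asic1 against weeks after fracture in young, adult and older rats, 1 array a point. Grina and Kcnc4 were lower in young than in older rats at 4 and 6 weeks, and Asic1 had its lowest signal, 26.2, at young 0 time.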

How the data were processed

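RNA of rat femur was read on 18 Affymetrix rat arrays, 1 for each age and time point, 1 of the paper's 3 arrays per group; the rest were not analysed here. The authors deposited intensity values on a linear scale, made with Microarray Suite 5.0 so that each array averages 500. Of 8799 probe sets, 59 controls were left out. A floor of 20 was applied before log2, and arrays were not normalized again. Names came from GEO's platform annotation: 7006 had 1 gene symbol, 308 several and 1426 none.

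Changes were tested with limma 3.58.1 (R 4.3.3) on all 8740 probe sets, with an intensity trend and Benjamini-Hochberg adjustment at 0.05. Errors are standard errors of the fit. The fit over time had week and age as terms (10 residual degrees of freedom), older and young rats were compared over the later weeks with age and week (8) and at 4 and 6 weeks with an age term per phase (4), and the change from the own control with an age term for fracture (8). A member called by the F test takes the direction of its largest change. Figures were drawn with matplotlib 3.10.9.

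Members and lists were chosen with earlier results of these data known. Named are all members past the F test with a mean signal of 100 or more, the 10 brightest, the brightest of each family, Gabrd, Gabbr2 and Asic3, the 5 with the lowest p for older against young rats, and up to 3 called genes per pathway list. Other genes were named after their values were seen. The alternatives were other floors, offsets, normalizations and filters, each age left out, the methods' t-test, and, chosen after seeing the data, each 0 time array left out. Precision is limited by the number of arrays. The replicates over time are the 3 ages, so p-values of the fit over time measure the spread between single arrays of different ages. For older against young rats the weeks after fracture stood as replicates of an age. Those p-values measure the spread between single arrays of different weeks.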

Additional observations from a re-analysis of the deposited data

Results flagged for a closer look

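The change from the own 0 time array differed between older and young rats by the limma test of that difference for 11 members (7.80%). All were more downward in older rats. Of all probe sets 3.02% were more downward and 3.57% more upward. Only 2 of them, Htr1d and Asic1, were among the 65 followed members (3.08%). The log2 difference, older minus young, was -1.90 for Htr1d, -3.94 for Asic1, -2.08 for Scnn1g, -0.98 for Grm5, -1.0 for Kcna4, -1.79 for Kcnb2, -0.79 for Kcnk3, -0.79 for Kcnab3, -0.67 for Kcna3, -0.24 for Gabrb1 and -0.24 for Gabrr2. Kcnb2 had signals of 7.0, 94.5 and 72.9 at 0 time in young, adult and older rats and of 3.7 to 24.3 afterwards, so most of its values were below the floor of 20. Mean signals were also below that floor for Gabrr2 (15.2), Gabrb1 (15.8), Kcna3 (16.3) and Kcnab3 (19.6). With a floor of 1 only Asic1 and Scnn1g passed.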

How the results depend on the processing

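Of the 16 followed members past the F test, none changed sign under any alternative, and their log2 values passed in 167 of 240 combinations of gene and setting. Cacna1g did not pass with a floor of 1, an offset of 50, median scaling or where low probe sets were left out, Scn4a, Kcnj1, Kcne1 and Grm7 with the mean of all probe sets of a symbol, Kcnj11 and Cacng1 without the age term, and Kcnj11, Cacng1, Gabrd, Kcne1 and Grm7 without the young 4- and 6-week arrays. With an age or a 0 time array left out, the members past the F test ranged from 0 to 44. The share of all probe sets past it ranged from 0.297% to 36.8% in these fits. The counts that follow by week, by the methods' t-test and between ages are given without such shares. They are not a result about the members alone. Those called in either direction ranged from 1 to 53 at 0.4 weeks (40 with all arrays), from 2 to 63 at 1 week (47), from 0 to 45 at 2 weeks (26), from 0 to 24 at 4 weeks (2) and from 0 to 25 at 6 weeks (1). At 4 weeks an offset of 50 or quantile normalization gave 4 members and no age term gave 1, and at 6 weeks no age term gave 0. With only probe sets of a mean signal of at least 100 these were 26 at 0.4 weeks, 25 at 1 week and 4 at 4 weeks. By the F test 24 members (36.9%) passed with that filter, against 44.4% of all probe sets kept. The methods' t-test after Benjamini-Hochberg adjustment called 1, 3, 0, 0 and 0 members at the 5 times, and at an unadjusted p of 0.005, the limit the methods set for comparing single arrays, 5, 5, 3, 0 and 2. Between older and young rats at 4 and 6 weeks, where the count was 0, a floor of 1, an offset of 50 and the filter on low probe sets gave 2 and quantile normalization gave 1. For the change from the own control, where it was 11, these 4 settings gave 2, 3, 2 and 6, and median scaling gave 5. The share of signals below 20 was 29.26% over all probe sets of the members, and 31 members had a mean signal of at least 200. The cause of these differences was not tested. Age was already a term of the fit over time, so weeks were compared within ages. Without it 24 members passed the F test, as with it, against 25.1% of all probe sets.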
